A study of Drosophila melanogaster with 2 samples.

Results

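The Sox genes encode transcription factors that bind DNA through an HMG-box domain, and the 8 genes described here are SoxN, Dichaete (D), Sox21a, Sox21b, Sox14, Sox15, Sox100B and Sox102F of Drosophila melanogaster. Binding of another factor, Oc, was mapped near them by ChIP-seq, which sequences the DNA fragments that an antibody pulls down with a protein. A peak was given to a Sox gene when its summit, the position of highest signal, lay nearer to a start site of that gene than to any start site of another protein-coding gene. By this rule the Sox genes held 22 of the 5844 summits of the IDR set, which the depositors thresholded on reproducibility between replicates (irreproducible discovery rate), and 102 of the 30000 summits of the list called on the pooled reads. At least 1 IDR summit lay at 7 of the 8 genes, while 21.1% of 13764 protein-coding genes had at least 1. All 8 had a pooled summit, against 42.3% of genes. The sequence nearest to the start sites of each Sox gene was longer than the median of all genes (4.33 kb), and for 6 of them it was 10 kb or more. All 6 had an IDR summit, where the share among all 3454 genes with 10 kb or more was 42.7%. These 6 had 16.6 to 42.9 kb, so the class is not matched to them. The 8 genes were chosen with earlier results of these data known, and the 10 kb class after the values were seen. None of these comparisons is therefore a test.

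Both libraries were made from whole embryos, 2 to 14 hours old, whose genome carries a stable transgene for Oc joined at its C terminus to GFP, and an antibody to GFP was used. They are biological replicates 2 and 3 of a single group, so there is no comparison of conditions and no test over samples. Each was set against the same control alignment, and no library from embryos without the tagged protein was analysed here. In whole embryos, binding in few cells and weak binding in many cells cannot be told apart. Each peak carries a deposited signal value whose scale is not stated, from 146 to 2816 with a median of 217 in the IDR set, and peaks were therefore compared by their rank within a list, where 1 is the strongest. Read depth per library is not stated in the sources. oc itself, the gene of the tagged factor, had 28 IDR summits, the highest number of any gene.

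Sox proteins bind in the minor groove, bend the DNA and act with partner factors to direct cell fate, above all in the nervous system. In the fly the group B proteins are SoxN, D, Sox21a and Sox21b, while Sox14, Sox102F, Sox100B and Sox15 stand for groups C, D, E and F. SoxN and D act together in the early neuroectoderm, from which neural stem cells arise, and D is also needed for segmentation and for the midline of the central nervous system. Oc, the product of ocelliless (also called orthodenticle), is a homeodomain protein that patterns the head and the ventral midline and whose class of homeodomain prefers the core site TAATCC.

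The core site lay within 50 bp of the summit in 7 of the 22 IDR peaks at Sox genes. The windows of the 6 at SoxN, D and Sox21a are shown because they hold the sequence that Oc is known to prefer. Each is the plus strand of dm6, 5′ to 3′, from 50 bp left to 50 bp right of the summit, with the core site in capitals (read as GGATTA where it lies on the minus strand).
SoxN, upstream peak at chr2L:8809955-8810055: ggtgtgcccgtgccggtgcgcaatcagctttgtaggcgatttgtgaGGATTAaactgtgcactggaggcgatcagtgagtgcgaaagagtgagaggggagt
SoxN, nearer downstream peak at chr2L:8832183-8832283: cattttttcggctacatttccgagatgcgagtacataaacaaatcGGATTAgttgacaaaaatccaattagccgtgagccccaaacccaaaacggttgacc
SoxN, farther downstream peak at chr2L:8837640-8837740: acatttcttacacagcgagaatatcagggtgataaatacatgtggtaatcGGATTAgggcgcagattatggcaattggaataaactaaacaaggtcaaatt
D, middle peak at chr3L:14168856-14168956: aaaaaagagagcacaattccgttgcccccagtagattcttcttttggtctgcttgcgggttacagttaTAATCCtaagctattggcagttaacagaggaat
D, peak beside the gene at chr3L:14175167-14175267: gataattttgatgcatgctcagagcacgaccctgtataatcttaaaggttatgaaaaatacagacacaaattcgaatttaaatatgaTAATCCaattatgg
Sox21a, peak in Sox21b at chr3L:14114471-14114571: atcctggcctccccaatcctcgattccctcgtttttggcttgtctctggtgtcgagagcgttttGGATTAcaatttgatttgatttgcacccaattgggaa

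The windows of 3 strong IDR peaks at D and Sox21b are shown for contrast. None has a core site within 50 bp of the summit, so all letters are in lower case.
D, far peak at chr3L:14158147-14158247: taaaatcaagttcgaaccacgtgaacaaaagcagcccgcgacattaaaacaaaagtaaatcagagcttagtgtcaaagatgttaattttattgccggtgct
D, second peak at chr3L:14168042-14168142: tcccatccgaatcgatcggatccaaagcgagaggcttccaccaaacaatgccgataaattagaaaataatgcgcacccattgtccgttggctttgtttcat
Sox21b, upstream peak at chr3L:14142677-14142777: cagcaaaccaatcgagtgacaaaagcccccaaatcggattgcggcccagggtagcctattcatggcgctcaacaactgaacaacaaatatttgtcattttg

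SoxN, which specifies neural progenitors together with D, had 5 IDR summits, spread over both sides of a gene with a single start site. The strongest lay 15.6 kb upstream (2L 8810005, signal 360, rank 1081 in the IDR set). Its signal was 196 in replicate 2 (rank 1095) and 162 in replicate 3 (rank 1226). The summit at the promoter, 141 bp upstream of the start (2L 8825504, signal 302), ranked 1988 in replicate 2 and 1419 in replicate 3. Downstream of the gene lay summits at 6.59 kb (2L 8832233, signal 268), 9385 bp (2L 8835030, signal 199.6) and 12.0 kb (2L 8837690, signal 154) from the start. These downstream summits weakened with distance from the gene, and the last was the weakest of all 22. Their ranks were 1833, 3080 and 6153 in replicate 2 and 2767, 3946 and 3826 in replicate 3, so this order of the last pair did not hold in replicate 3.

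The core site marked 3 of the 5 SoxN summits and lay at the summit itself in each. It occupied 2L 8810001 to 8810006 at the upstream peak, 2L 8832228 to 8832233 at the nearer downstream peak and 2L 8837690 to 8837695 at the farther downstream peak, on the minus strand in all 3. Read on that strand, both downstream peaks share the run CTAATCCGATT of 11 bases around the core. This run, picked out after the sequences were seen, occurred in 3 of the 5844 IDR windows and in 7 of the 30000 pooled windows, counting both strands. The other 2 SoxN summits, at the promoter and at 9385 bp, had no core site within 500 bp.

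**Figure D1:**
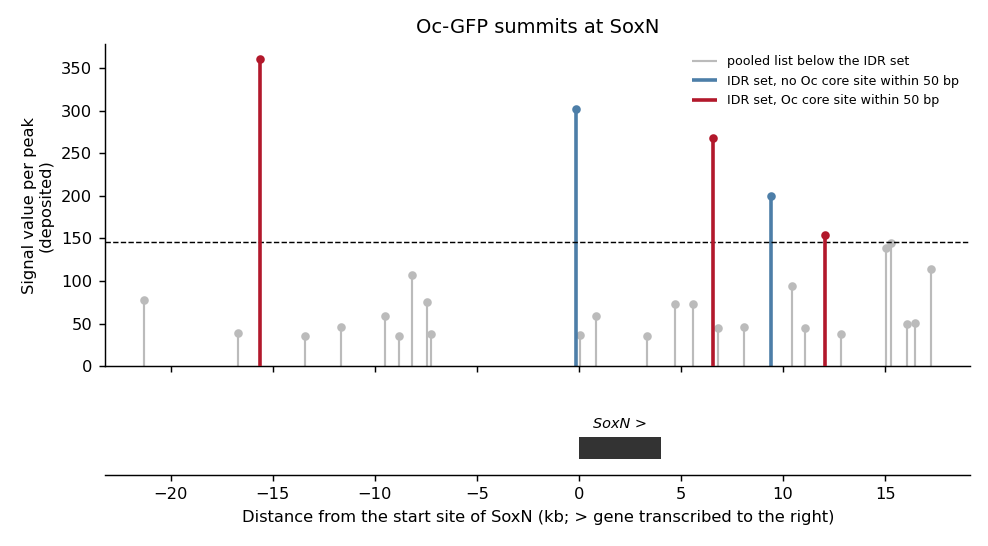
Signal value of each pooled summit at SoxN (vertical axis, deposited scale) against its distance in kb from the start site, with the gene drawn as a bar. Blue and red stems are the 5 IDR summits, red where the core site lies within 50 bp, grey stems are the 24 pooled summits below the IDR set, and the dashed line is the lowest signal of the IDR set (146). The red summits at 15.6 kb upstream and 6.59 and 12.0 kb downstream flank the gene.

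D, Sox21b and Sox21a lie side by side on 3L, all on the minus strand, over 75.1 kb. Between them they held 14 of the 22 IDR summits and 59 of the 102 pooled summits. The sequence nearest to their start sites (81.0 kb) carried 173 IDR summits per Mb, against 47.3 per Mb over all of 3L, and 728 pooled summits per Mb against 247. The IDR summits ran over 66.1 kb with no gap wider than 10.2 kb, and 9 of the 14 lay in the 44.3 kb between the 5′ end of Sox21b and the 3′ end of D.

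D had 6 IDR summits, and 5 of them lay beyond its 3′ end, between 2320 bp and 19.3 kb from the nearest start site. The peak at 19.3 kb was the strongest (3L 14158197, signal 856). It ranked 151 in the IDR set, with a signal of 486 in replicate 2 (rank 134) and 363 in replicate 3 (rank 189). It was thus near the top of both replicate lists. The next was 9445 bp away (3L 14168092, signal 422), at rank 659 in replicate 2 and 1163 in replicate 3. A summit inside the gene, 157 bp upstream of its downstream start site (3L 14177694, signal 362), was the promoter peak of D, with ranks of 936 and 1520. Summits at 3122 bp (3L 14174415, signal 265), 8631 bp (3L 14168906, signal 245) and 2320 bp (3L 14175217, signal 178) were weaker.

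The core site lay at 3L 14168924 to 14168929 and at 3L 14175254 to 14175259, both on the plus strand, beside the summits at 8631 bp and 2320 bp. These are the 2 weakest of the 6 peaks by pooled signal and in replicate 2 (ranks 4224 and 4254). This order did not hold in replicate 3, where the peak at 8631 bp (signal 156, rank 1325) was above the promoter peak (signal 147, rank 1520) and the peak at 3122 bp (signal 106, rank 2916). The other 4 peaks of D had no core site within 50 bp. At the strongest peak the nearest core site was centred 369.5 bp from the summit.

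Sox21b, a group B gene next to D, also had 6 IDR summits. A pair flanked its promoter, 483 bp upstream (3L 14131807, signal 370) and 451 bp downstream (3L 14130846, signal 229) of a start site. The strongest summit lay 11.4 kb upstream (3L 14142727, signal 415, rank 808), with a signal of 224 in replicate 2 (rank 815) and 205 in replicate 3 (rank 712). A further pair lay upstream at 10.5 kb (3L 14141790, signal 234) and 21.2 kb (3L 14152556, signal 232), and the sixth in an intron 6619 bp downstream (3L 14124678, signal 226). None of the 6 had the core site within 50 bp. The 3 summits far upstream are nearer to lncRNA:CR45887, a non-coding gene at 3L 14134722 to 14135102, than to Sox21b. With start sites of genes of every biotype included, 3 IDR summits were assigned to Sox21b.

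Sox21a, which directs differentiation of stem cells in the adult gut, had 2 IDR summits and neither was at its promoter. The summit 3524 bp upstream (3L 14111642, signal 259) was the least alike between libraries of all 22. Its signal was 92.3 in replicate 2 (rank 4536) and 166 in replicate 3 (rank 1155). The summit 6403 bp upstream (3L 14114521, signal 249) lies in an intron of Sox21b, so by gene body it would belong to Sox21b, and its core site occupies 3L 14114535 to 14114540. At the Sox21a promoter a pooled summit below the IDR set lay 292 bp upstream of the start (signal 62.8).

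**Figure D2:**
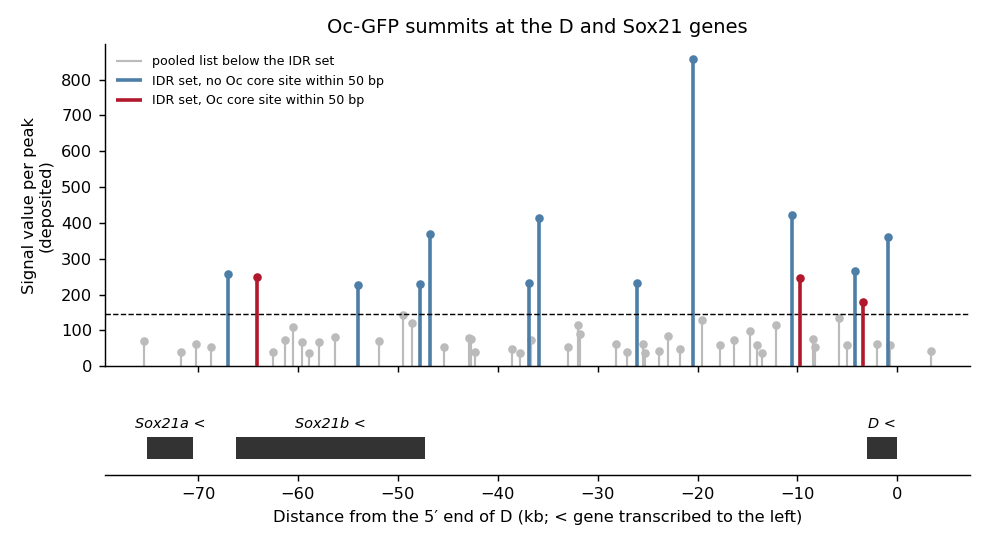
Signal value of each pooled summit at D, Sox21b and Sox21a (vertical axis, deposited scale) against its distance in kb from the 5′ end of D, with genes drawn as bars. Blue and red stems are the 14 IDR summits, red where the core site lies within 50 bp, grey stems are pooled summits below the IDR set, and the dashed line is the lowest signal of the IDR set (146). The tallest stem (signal 856) lies between Sox21b and D, and the red stems reach pooled signals of 249 or less.

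Sox14, a group C gene that ecdysone induces and that is needed for pruning of neurites at metamorphosis, had the strongest peak of the family. Its sole IDR summit lay 256 bp upstream of a start site (2R 23978545, signal 994) at rank 102 of 5844. The signal was 580 in replicate 2 (rank 80) and 410 in replicate 3 (rank 135), so both libraries placed it among their strongest peaks. The neighbouring genes PPP1R15 and CG30178 had 0 summits, even in the pooled list.

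Sox102F, the group D gene on chromosome 4, had a single IDR summit in an intron, 13.3 kb downstream of the nearest start site (4 821081, signal 359). Signals were 201 in replicate 2 (rank 1035) and 153 in replicate 3 (rank 1388), and all 3 lists put the summit at the same base. Chromosome 4 carried 12 IDR summits in all, at 7 genes, and this was the fourth strongest, below a highest signal of 433. The replicate lists held 9 and 10 summits at Sox102F, the pooled list held 2, and 3 were within 100 bp of each other in the replicates.

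Sox100B, the group E gene that is needed for testis development, had a single IDR summit 446 bp upstream of its start (3R 31064807, signal 168). It ranked 4733 in replicate 2 and 4883 in replicate 3. This was the sole promoter summit of the family with a core site within 50 bp. Sox15, the group F gene that acts in the socket cells of sense organs, had 0 IDR summits. Its strongest pooled summit lay in an intron (2R 14207948, signal 137, pooled rank 6459). It ranked 4851 in replicate 2 with a signal of 88.8 and 13357 in replicate 3, so taken alone replicate 2 would place Sox15 among the genes with a summit in its 5844 strongest peaks.

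**Figure D3:**
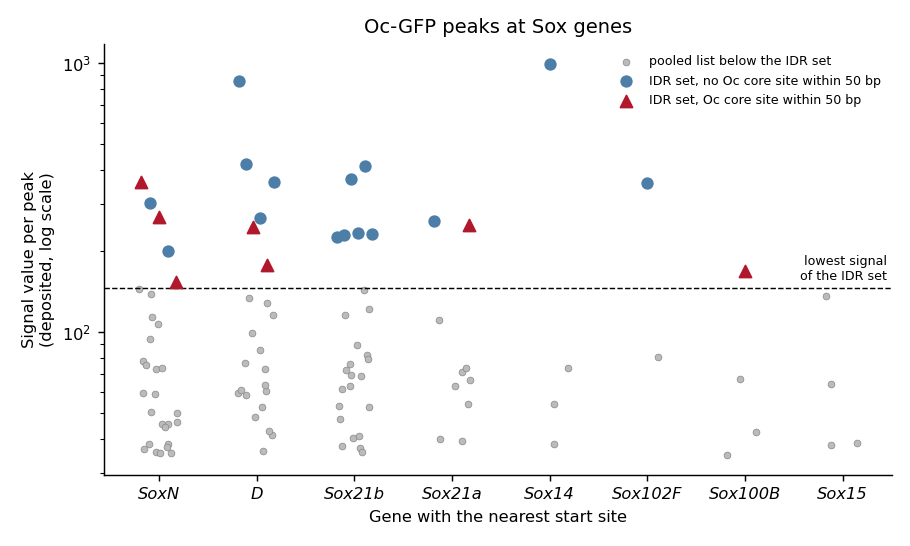
Signal value of every pooled summit (vertical axis, log scale, deposited units) at each of the 8 Sox genes. Blue circles are IDR summits, red triangles are IDR summits with the core site within 50 bp, small grey points are the 80 pooled summits below the IDR set (spread sideways for visibility), and the dashed line is the lowest signal of the IDR set (146). Sox14 and D hold the highest values (994 and 856), and Sox15 has no point above the line.

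IDR summits were most numerous at 3 of the 4 group B genes. D and Sox21b had 6 each and SoxN 5. At least 5 IDR summits were found at 1.71% of all genes and at 6.66% of genes with 10 kb or more of nearest sequence. That class was picked after the values were seen and is not matched to these genes. D has 29.7 kb of nearest sequence, Sox21b 34.7 kb and SoxN 40.1 kb. Per length, IDR summits stood at 202 per Mb at D, 173 at Sox21b, 125 at SoxN and 120.3 at Sox21a. The values were 191 per Mb at Sox14, which rests on a single summit in 5.23 kb, 55.4 at Sox100B and 23.3 at Sox102F. Over all 8 genes there were 113 IDR summits per Mb against 42.5 per Mb over all genes. Pooled summits were denser too, at 523 per Mb against 218. The values over all genes divide by the full length of the chromosome arms (137.5 Mb), Y included. Sequence in which peaks could not be called was not left out. The share of pooled summits that entered the IDR set was 21.6% at Sox genes (22 of 102, exact binomial 95% interval 14.0 to 30.8) and 19.5% in the whole list.

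**Figure D4:**
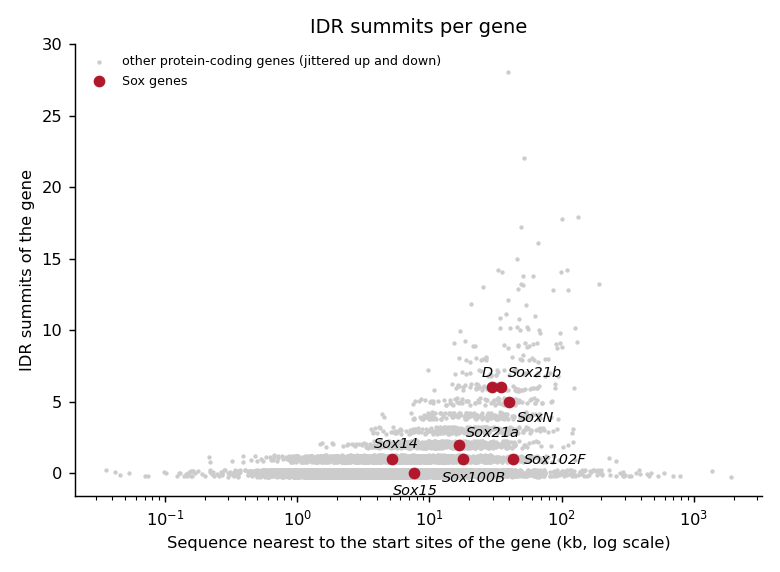
Number of IDR summits (vertical axis) against the length of sequence nearest to the start sites of a gene in kb (horizontal axis, log scale). Grey points are the other protein-coding genes, moved slightly up or down to separate them, and red points are the 8 Sox genes. D, Sox21b and SoxN sit at 5 or 6 summits, while Sox102F has 1 with the longest sequence of the family (42.9 kb).

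Sox peaks lay between genes and far from start sites more often than IDR peaks in general. Of the 22 summits, 13 were intergenic (59.1%, exact binomial 95% interval 36.4 to 79.3), where the share in the IDR set was 20.7%. Introns held 3 against 42.4% of the set and promoters, within 500 bp of a start site, held 6 against 34.1%. The distance to the nearest start site was over 2 kb for 16 (72.7%, 49.8 to 89.3) against 48.9%, with a median of 6.60 kb against 1.90 kb. SoxN and D contributed 9 of the 13 intergenic summits and Sox21b 3. SoxN is 4026 bp long in 40.1 kb of nearest sequence and D 3011 bp in 29.7 kb. The median nearest sequence of all genes was 4.33 kb. Shares among genes with as much nearest sequence as the Sox genes were not computed, so a part of this length in the shares was not tested. Peaks of 1 gene share a locus and are not independent, although the intervals take them so. The shares of Sox peaks were therefore not tested.

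The core site occurred within 50 bp of 31.8% of the Sox summits (7 of 22, exact binomial 95% interval 13.9 to 54.9) and of 8.30% of all IDR summits. In equally wide windows placed 500 bp to the left and right, it was in 2 of 44 at Sox genes (4.55%) and in 3.41% over the set. Outside promoters 6 of 16 Sox summits had it (9.61% in the set) and at promoters 1 of 6 (5.77%). By gene the sites fell to SoxN (3), D (2), Sox21a (1) and Sox100B (1). Within 25 bp of the summit the core site lay at 6 of the 22, and at 4.45% of all IDR summits. The number of 7 within 50 bp rested on the lists used. Among the 5844 strongest peaks of replicate 3 alone, 6 of 24 Sox summits had the site, against 7.68% of all, and of replicate 2 alone 4 of 25, against 7.94%. The interval above takes summits as independent, which peaks of 1 gene are not, so it is not a test against the 8.30%.

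Each of the 8 other motifs searched was in fewer Sox windows than the core site, counting both strands within 50 bp. TAAGCC was in 2 windows (at D and Sox102F; 8.69% of the set), TAATTG in 2 (8.32%), ACAAAG, a Sox-type site, in 3 (7.89%), ACAATG, another Sox-type site, in 1 (6.47%), TAATTA in 1 (7.68%) and GAGAGAG in 1 (2.89%). CAGGTAG and TATCGATA were in 0 of 22, where the set had 0.376% and 0.753%. Each of these counts is 3 windows or fewer.

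All 22 IDR summits at Sox genes had a summit within 100 bp in both replicate lists, where the share in the IDR set was 93.6%. The IDR set was derived from those lists, so this is partly built in. Summits in the replicates lay at most 82 bp, and in the median 12.5 bp, from the pooled summit. Ranks in the replicates were within a factor of 2 for 20 of the 22. The other 2 (9.09%, exact binomial 95% interval 1.12 to 29.2) were over 2 times apart. This held for 23.1% of the 5472 IDR summits found in both lists. Those 2 summits were the one 3524 bp upstream of Sox21a and the one at 8631 bp from D (rank 4224 in replicate 2 and 1325 in replicate 3), and both ranked higher in replicate 3.

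**Figure D5:**
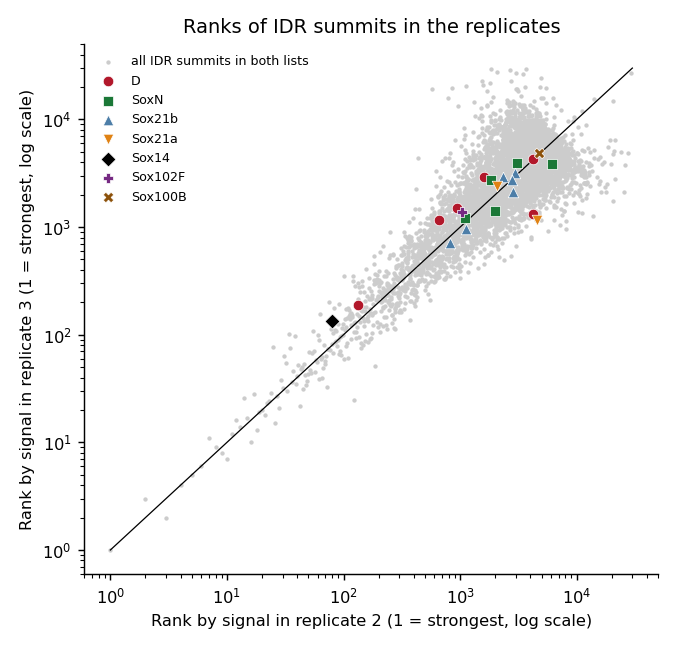
Rank by signal in replicate 3 against rank in replicate 2 (both log scales, 1 is the strongest) for the IDR summits found in both lists. Grey points are all such summits, coloured symbols are the 22 summits at Sox genes, and the line marks equal ranks. Sox14 and the far peak of D stand apart at ranks 80 to 189, and a summit each of Sox21a and D lies well below the line.

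Below the IDR set the Sox genes held 80 pooled summits with signals from 34.9 to 145 and a median of 60.5, close to the 59.8 of all 24156 lower peaks. Both replicates had a summit within 100 bp for 34 of them (42.5%, exact binomial 95% interval 31.5 to 54.1), against 45.1% of all lower peaks. A further 24 were in replicate 2 alone, 18 in replicate 3 alone and 4 in neither. Each replicate list held 30000 summits, so a summit missing from 1 list is not shown to be absent from that library. Within 200 bp, 51 of the 80 were in both lists. SoxN had 24 lower summits (9 in both replicates), Sox21b 20 (8), D 17 (9), Sox21a 8 (5), Sox15 4 (1), Sox14 3 (1), Sox100B 3 (0) and Sox102F 1 (1). The core site was in 6 of the 80 (7.50%, 2.80 to 15.6) and in 5.33% of all lower windows.

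The weakest Sox summit inside the IDR set was that of SoxN at 12.0 kb (signal 154, pooled rank 5384), and the strongest outside were also at SoxN, at 15.3 kb (2L 8840915, signal 145, rank 5909), and at Sox21b in an intron (3L 14129147, signal 144, rank 5989). A second SoxN summit lay beside it (2L 8840695, signal 139). Replicate 2 had a summit near each, at ranks 6284 and 7971, whereas replicate 3 had its summit between them (2L 8840810, rank 3336), more than 100 bp from both. The strongest lower summit of D lay at 4727 bp (3L 14172810, signal 134), at rank 4270 in replicate 2 and 12182 in replicate 3. The strongest of the others had signals of 111 at Sox21a, 81.1 at Sox102F, 73.5 at Sox14 and 67.1 at Sox100B.

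Of the 12 protein-coding genes next to the family, 4 had an IDR summit, where the share over all genes was 21.1%. The 8 without were PPP1R15 and CG30178 beside Sox14, nan beside D, Fbp1 beside Sox21a, VGAT beside Sox15, CG11317 beside Sox100B, and MED26 and fd102C beside Sox102F. CG42710 and CG32986, on the 2 sides of SoxN, had 1 and 4, dco beside Sox100B had 2, and RpS23 beside Sox15 had 3. D and Sox21b, with 6 summits each, were matched in number by 49 other genes. By highest signal those nearest to D (856) included Syx17 (811) and dnc (751), and those nearest to Sox21b (415) were cindr (415), comm (413) and CG43192 (391).

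Other HMG-box genes and neural genes reported to act with SoxN and D were counted in the same way. Of 9 HMG-box genes outside the family 5 had an IDR summit, set against 21.1% of all genes. They included HmgZ, a chromosomal HMG protein gene (4 summits, highest signal 1384), bbx (2, 779), the repressor gene cic (10, 524) and Dsp1 (1, 247), while pan, the Wnt effector TCF, had 0. Of 14 neuroectoderm and neuroblast genes 7 had a summit, led by the POU factor genes nub (2, 801) and vvl (8, 405), then Dr (2, 244) and pros (2, 172). Of the proneural genes, ac had 1 (signal 153) and sc and l(1)sc had 0. The neuroblast gene ase, the patterning gene ind, and the Snail family genes wor, sna and esg had 0. The median number of IDR summits per gene was 1.5 over the Sox genes, 1.0 over the HMG-box list, 0.5 over the neural list and 0.0 over all genes. These groups were not matched for length of nearest sequence. Among all genes with 10 kb or more of it, 42.7% had an IDR summit.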

How the data were processed

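ChIP-seq of GFP-tagged Oc was analysed from 4 deposited peak lists in the narrowPeak format. Per the file list deposited with the samples, the authors derived a list for each replicate from its own alignment and a shared control alignment, a list from both alignments pooled, and the optimal IDR-thresholded peaks from those 3, all on dm6. No peak caller, setting or read depth is stated in the sources used here. The deposited signal value is positive and on no stated scale. The deposited q-value is on the −log10 scale, and 72.0% of IDR peaks share its highest value, 3.92, so peaks were ranked by signal. The other deposited column used is the summit offset in bases. The 5844 IDR peaks are the 5844 pooled peaks of highest signal. The age field of the labels is no embryonic age, so the source name was used. The antibody field reads oc, while the description names an antibody against GFP.

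Positions are 1-based on dm6. Summits (interval start plus offset) were assigned with the Ensembl 115 annotation (BDGP 6.54) to the nearest start site of a protein-coding gene, on the chromosome arms only. The midpoints between start sites bound the sequence nearest to a gene. Replicate summits matched within 100 bp. Promoters are within 500 bp of the start site of any gene, transposable elements left out. Motifs were searched on both strands of the RefSeq release 6 sequence within 50 bp. Analyses used Python 3.11.15, numpy 2.4.6, pandas 2.3.3 and matplotlib 3.10.9, and the assignment was tested on simulated positions. No p-values were computed: with 2 libraries of 1 group, results are counts and ranks beside the share over all genes or peaks. Intervals are exact binomial, take summits as independent and cover counting error only. Peaks of 1 gene are not independent, so no interval serves as a test. The members and both gene lists were chosen with earlier results of these data known. The text names all 8 genes with every IDR summit, the strongest lower summit of each, flanking protein-coding genes, up to 4 genes of each list by signal, and for the members with most summits the 3 genes with that number and the nearest highest signal, except that a gene and a sequence window that the rules would give are not reported here. List genes with 0 summits, ac, the 10 kb size class and the shared run of bases were picked after the values were seen. Alternatives changed the start sites used, the rule and limit of assignment, peak position, match distance, motif window, signal threshold and the lists used.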

Additional observations from a re-analysis of the deposited data

How the results depend on the processing

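Counts of Sox genes with an IDR summit (7) and of IDR summits at them (22) stayed within 1.5 times under each alternative run. So did the count found in both replicates (22), but it already took in all 22. A match within 200 bp, or in 1 list alone, could therefore not lower it. A match within 50 bp gave 19. The genes ranged from 6 to 8. The summits ranged from 15, within 10 kb of a start site, to 25, in replicate 2 alone. Without replicate 2 there were 24 and without replicate 3 there were 25. For genes, summits and core sites, runs without a replicate used the 5844 strongest peaks of the other replicate, with no IDR threshold. The 10 kb limit lowered the pooled summits from 102 to 61 and ended the IDR count of Sox102F (0), while SoxN and Sox21b kept 3 each. Counting start sites of every biotype gave 18 IDR summits, 0 of them at Sox102F and 3 at Sox21b, and leaving transposable elements out, a choice added after seeing the data, gave 19, with 1 at Sox102F and 3 at Sox21b. Assigning by gene body left 1 at Sox21a. In the 5844 strongest peaks of replicate 2 alone, Sox102F had 2 summits and Sox15 1. Sox100B had 0 in the stronger 2922 IDR peaks and SoxN 3. The 34 lower summits found in both replicates became 20 within 50 bp, 56 by overlap of intervals and 9 with the 15000 strongest peaks of each replicate list. Asking for a match in 1 list instead of both, 52 lower summits had one in replicate 3 and 58 in replicate 2. The core site count of 7 was 4 in the stronger 2922 peaks, 6 without replicate 2 and 4 without replicate 3. The causes were not tested. No paired analysis was possible because there is 1 group. Depth is unknown, so a gene at 0 IDR summits is not shown to be unbound.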
